A study of Homo sapiens with 52 samples.

Results

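The transcripts described here are 7 annotated transcripts of 6 noncoding RNA genes: MALAT1 (ENST00000534336), a longer (ENST00000501122) and a shorter (ENST00000499732) isoform of NEAT1, NORAD (ENST00000565493), KCNQ1OT1 (ENST00000597346), RN7SK (ENST00000636484) and RN7SL1 (ENST00000618786). They were chosen by transcript identifier with its version suffix removed, and all 7 were found among the 226882 transcripts of the deposited count table. None of the 6 genes is known for encoding a protein. The libraries came from HEK293T, an established line derived from human embryonic kidney, in a study of eIF2D and the related MCTS1 and DENR proteins. RNA-seq and Ribo-seq were each made from MCTS1 knockout (KO) clone #1, MCTS1 KO clone #2 and wild type (WT) cells, and from cells treated with siDENR #1, siDENR #2 or a control siRNA (siControl), with 2 libraries per group. TCP-seq covered eIF2D KO clones #1 and #2 and MCTS1 KO clones #1 and #2 with 2 libraries each, and WT cells with 4. Selective TCP-seq (Sel-TCP-seq) of 40S subunits was made with eIF2D, MCTS1 or DENR carrying a V5 tag, with 2 libraries per protein. Each KO group is read here as a single clone, by its number. Beyond these, the sample names give no treatment or allele, and the protocol of Ribo-seq names cycloheximide.

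MALAT1 and NEAT1 are long RNAs kept in the nucleus, where NEAT1 builds paraspeckles and MALAT1 collects in nuclear speckles. KCNQ1OT1 is a nuclear antisense RNA that silences neighbouring imprinted genes, whereas NORAD is a mainly cytoplasmic RNA that binds Pumilio proteins. RN7SK and RN7SL1 are short, abundant products of RNA polymerase III: RN7SK holds the elongation factor P-TEFb inactive in the nucleus, and RN7SL1 is the RNA of the signal recognition particle, which docks on translating ribosomes. RNA-seq here is labelled as polyA RNA, and RN7SK and RN7SL1 carry no poly(A) tail of the mRNA kind, nor does mature MALAT1 or long NEAT1. Ribo-seq samples RNase-protected fragments that pellet with ribosomes, and TCP-seq samples fragments protected by ribosomal complexes that include the small subunit. Sel-TCP-seq keeps those complexes that carry the tagged protein.

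Library totals ran from 76967099 to 301214608 counts in RNA-seq, from 16370112 to 193940882 in Ribo-seq, from 1609303 to 5053637 in TCP-seq and from 356019 to 2582917 in Sel-TCP-seq. A read may enter a total more than once, because transcripts share reads, and levels are given as CPM, counts per 1000000 of that total. The 2 highest totals of RNA-seq, and likewise of Ribo-seq, were those of MCTS1 KO clone #1. Separate cultures behind the replicate libraries are not stated in the labels, and p-values therefore reflect only variation among these libraries, which may be technical. In these bulk libraries, fewer cells carrying an RNA and less of it per cell cannot be told apart, and a share also moves with everything else in the library. The level of the targeted genes was not checked here, because no table used here pairs transcript identifiers with those genes.

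Together the 7 transcripts took a far larger share of the TCP-seq and Sel-TCP-seq libraries than of the others. Their sum was 0.281% to 1.56% of a Sel-TCP-seq library (median 1.03%, 6 libraries) and 0.399% to 0.814% of a TCP-seq library (median 0.586%, 12 libraries). It was 0.00136% to 0.00321% in Ribo-seq (median 0.00191%) and 0.00891% to 0.0144% in RNA-seq (median 0.0121%, 12 libraries each). RN7SK and RN7SL1 made up nearly all of the sum in the TCP-type assays, at 0.260% to 1.54% in Sel-TCP-seq and 0.357% to 0.749% in TCP-seq. Ranked by mean CPM, which is not scaled by length, RN7SK was 3rd and RN7SL1 5th of 125813 transcripts with a count in Sel-TCP-seq. In TCP-seq RN7SL1 was 6th, RN7SK 8th and MALAT1 102nd of 152999. In RNA-seq the most counted of the 7 was NORAD, at rank 2640 of 184791, and RN7SK was at rank 103802.

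**Figure D1:**
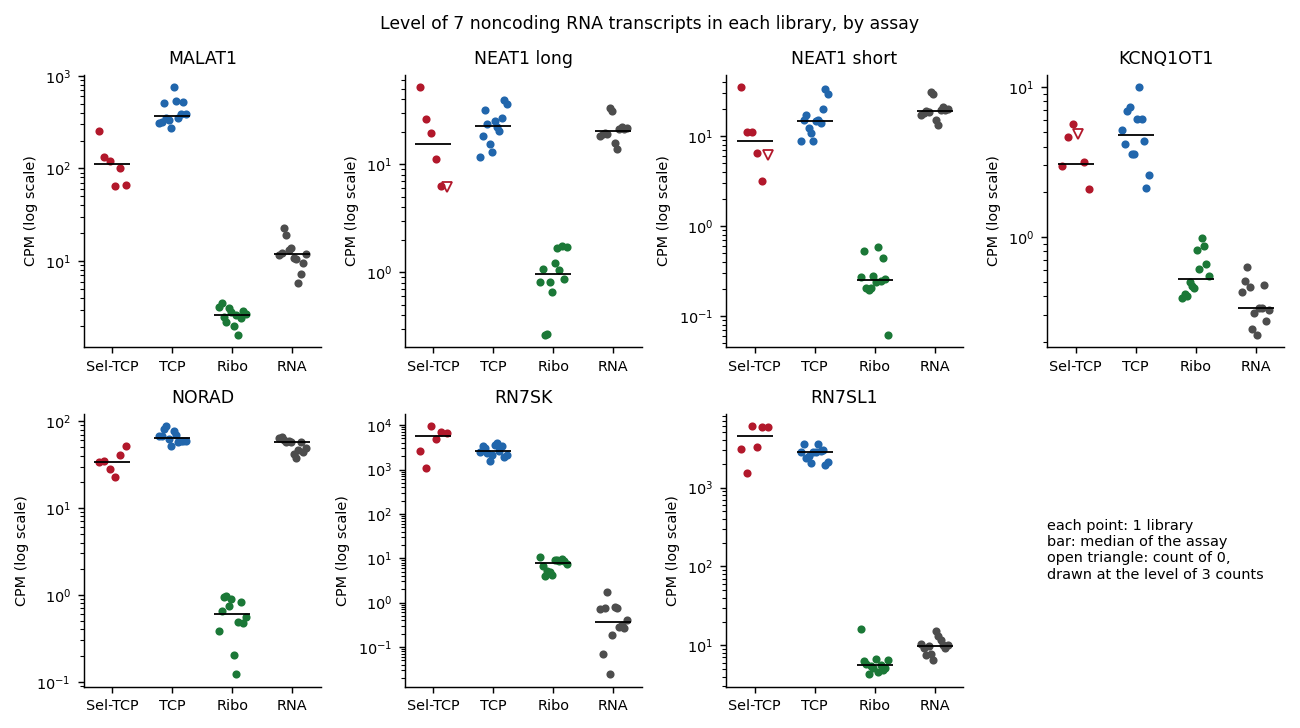
CPM of each of the 7 transcripts in every library (log scale), grouped by assay from Sel-TCP-seq on the left to RNA-seq on the right, with 1 point per library and a bar at the median. RN7SK and RN7SL1 lie at 1070.5 CPM or more in every TCP-seq and Sel-TCP-seq library and at 16.2 CPM or less in every Ribo-seq and RNA-seq library. The medians of MALAT1, NORAD, RN7SL1 and both NEAT1 isoforms are lowest in Ribo-seq, and those of RN7SK and KCNQ1OT1 in RNA-seq.

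Per kilobase of gene, taken from the RefSeq intervals of GRCh38.p14, the order of the RNAs differed between assays. RN7SL1 had a median of 9365 CPM per kilobase in TCP-seq and RN7SK had 7740.3, and the ranges of the 2 over 12 libraries overlapped. MALAT1 followed with 42.2, NORAD with 12.1, NEAT1 long with 1.00 and KCNQ1OT1 with 0.0520 CPM per kilobase. In RNA-seq the order was RN7SL1 at 33.0, NORAD at 10.7, MALAT1 at 1.35, RN7SK at 1.10, NEAT1 long at 0.897 and KCNQ1OT1 at 0.00366 CPM per kilobase. There MALAT1 ranged from 0.655 to 2.57, RN7SK from 0.0727 to 5.25 and NEAT1 long from 0.616 to 1.47, so these 3 neighbours overlapped. In Ribo-seq the medians were 24.0 for RN7SK and 18.6 for RN7SL1, whose ranges of 11.8 to 32.6 and 14.3 to 54.2 overlapped, and MALAT1, at 0.302 CPM per kilobase, had a higher median than NORAD, at 0.113. These lengths are those of the whole gene interval, and the levels of the 2 NEAT1 isoforms cannot be set apart by length.

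In WT cells MALAT1, both NEAT1 isoforms and NORAD took a smaller share of Ribo-seq than of polyA RNA-seq, and RN7SK took a larger one. The molecule is labelled polyA RNA for RNA-seq and total RNA for the other assays, so RNA selection and assay cannot be told apart in any comparison between them within a group. Of the 7 transcripts, 4 were lower and 1 higher in Ribo-seq than in RNA-seq, where 44.8% of the 57275 transcripts tested were lower and 27.1% higher. NORAD, the cytoplasmic Pumilio-binding RNA, had 0.388 and 0.656 CPM in the WT Ribo-seq libraries, against 63.9 and 66.0 CPM in the WT RNA-seq libraries. The ranges lie far apart, and the share of NORAD was 115-fold lower in Ribo-seq (log2 difference -6.84 ± 0.26, SE, adjusted p = 1.83e-48, edgeR quasi-likelihood test). Only 0.250% of all tested transcripts had a lower difference. The shorter isoform of the paraspeckle RNA NEAT1 had 0.271 and 0.524 CPM in WT Ribo-seq, against 17.4 and 18.2 CPM in WT RNA-seq, a log2 difference of -5.32 ± 0.24 (adjusted p = 3.96e-24). NEAT1 long had 0.814 and 1.09 CPM in WT Ribo-seq, against 18.3 and 19.0 CPM in WT RNA-seq (log2 difference -4.23 ± 0.21, adjusted p = 3.98e-23). MALAT1 was less depleted, with 3.18 and 3.56 CPM in WT Ribo-seq, against 11.8 and 12.3 CPM in WT RNA-seq (log2 difference -1.83 ± 0.50, adjusted p = 0.00754).

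The 2 polymerase III RNAs and KCNQ1OT1 differed from that pattern. RN7SK had 10.8 and 6.76 CPM in WT Ribo-seq, against 0.701 and 0.0686 CPM in WT RNA-seq, so it was higher in both Ribo-seq libraries (log2 difference 4.51 ± 0.83, adjusted p = 0.00102). The WT RNA-seq values rest on 56 and 6 counts, and the difference was 3.62 to 6.82 with 1 library left out. RN7SL1 had 16.2 and 6.28 CPM in WT Ribo-seq, against 10.3 and 9.29 CPM in WT RNA-seq, and its groups overlapped (log2 difference 0.18 ± 0.40, adjusted p = 0.702). Without WT Ribo-seq library 1 it passed the test as lower in Ribo-seq (log2 difference -0.64, adjusted p = 0.0417), and without WT Ribo-seq library 2 as higher (0.73, adjusted p = 0.0148). KCNQ1OT1 had 0.388 and 0.412 CPM in WT Ribo-seq, against 0.426 and 0.503 CPM in WT RNA-seq, a difference of -0.20 ± 0.41 that did not pass (adjusted p = 0.664).

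The siControl libraries, which share none with WT, gave the same comparison again. There 5 of the 7 transcripts were lower and 2 higher in Ribo-seq than in RNA-seq, where 44.7% of 128731 tested transcripts were lower and 23.7% higher. NORAD had 0.204 and 0.122 CPM in siControl Ribo-seq, from 6 and 4 counts, against 42.1 and 37.3 CPM in siControl RNA-seq (log2 difference -7.93 ± 0.17, adjusted p = 9.72e-23). The exact 95% intervals of the 2 Ribo-seq values were 0.0749 to 0.444 and 0.0331 to 0.311 CPM, so the size of this depletion is set by few counts. NORAD, counted among the 5, met the filter on low counts through the siControl RNA-seq libraries, where it was high. Its difference in siControl is thus a description and its call carries no weight. NEAT1 short (-5.07 ± 0.20), NEAT1 long (-3.35 ± 0.15) and MALAT1 (-2.21 ± 0.14) were lower and RN7SK higher (3.54 ± 0.16), in the same directions as in WT. RN7SL1 was lower in siControl Ribo-seq, with 6.60 and 4.62 CPM, against 15.2 and 12.9 CPM in siControl RNA-seq (-1.33 ± 0.13, adjusted p = 1.12e-09). KCNQ1OT1 was higher, with 0.816 and 0.608 CPM in siControl Ribo-seq, against 0.221 and 0.336 CPM in siControl RNA-seq (1.31 ± 0.42, adjusted p = 0.00839), but it did not pass without siControl RNA-seq library 1 (1.07, adjusted p = 0.178) or library 2 (1.67, adjusted p = 0.0559).

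TCP-seq held more of every one of the 7 transcripts than Ribo-seq did. All 7 were higher in WT TCP-seq than in WT Ribo-seq, where 34.8% of the 57275 tested transcripts were higher and 35.6% lower, and their median log2 difference was 6.96, beside -0.02 over all tested. RN7SK had 2488, 3386, 3487 and 3967 CPM in the 4 WT TCP-seq libraries, against 10.8 and 6.76 CPM in WT Ribo-seq, a log2 difference of 8.58 ± 0.88 (adjusted p = 1.93e-05). RN7SL1, the signal recognition particle RNA, had 2845, 3609, 2798 and 3519.8 CPM in WT TCP-seq, against 16.2 and 6.28 CPM in WT Ribo-seq (8.17 ± 0.52, adjusted p = 7.43e-10). Every WT TCP-seq library lay far above both WT Ribo-seq libraries for each of these RNAs. MALAT1 had 307, 318, 758 and 539.9 CPM in WT TCP-seq, against 3.18 and 3.56 CPM in WT Ribo-seq (7.15 ± 0.58, adjusted p = 1.19e-06). NORAD had 68.1, 67.1, 76.2 and 70.0 CPM in WT TCP-seq, against 0.388 and 0.656 CPM in WT Ribo-seq (6.96 ± 0.26, adjusted p = 3.55e-48). NEAT1 short (4.87 ± 0.34), NEAT1 long (4.24 ± 0.27) and KCNQ1OT1 (3.93 ± 0.42) differed less but also without overlap. KCNQ1OT1 met the filter on low counts only through TCP-seq and Sel-TCP-seq libraries, where it was higher. Its difference from Ribo-seq is thus a description and its call carries no weight. The assay and its library preparation cannot be told apart in any of these differences.

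**Figure D2:**
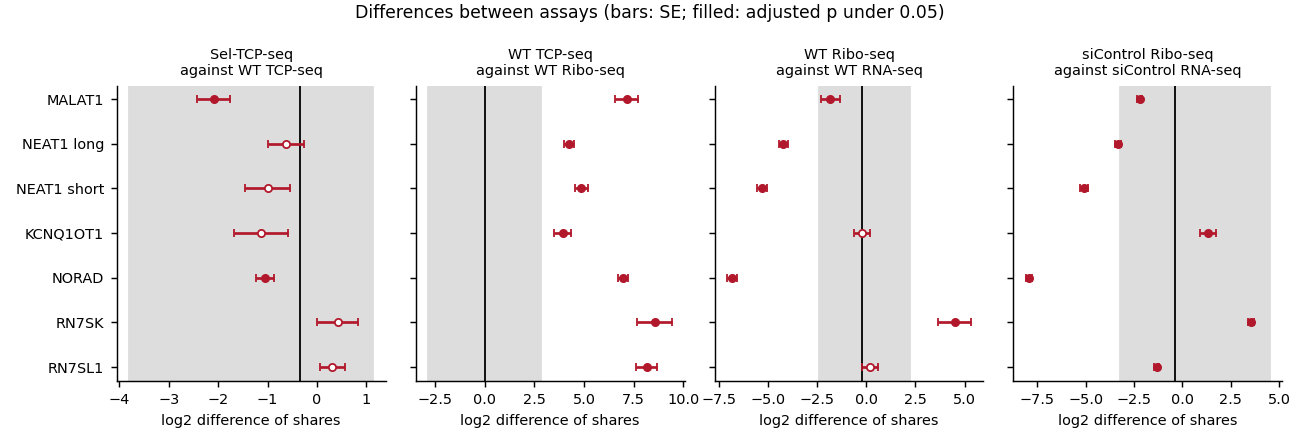
Log2 difference in library share between assays for each transcript, with SE bars, filled where the adjusted p is under 0.05. The grey band spans the 5th to 95th percentile of all tested transcripts and the black line their median. All 7 transcripts lie to the right of the band for WT TCP-seq against WT Ribo-seq, and NORAD and NEAT1 short lie furthest left for Ribo-seq against RNA-seq in WT and in siControl cells.

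Set against polyA RNA-seq, TCP-seq split the 7 transcripts. WT TCP-seq was higher than WT RNA-seq for 4 of them and lower for 1, where 22.6% of the 57275 tested transcripts were higher and 42.5% lower. RN7SK showed the widest difference, with 2488 to 3967 CPM in WT TCP-seq, against 0.701 and 0.0686 CPM in WT RNA-seq (log2 difference 13.08 ± 1.06, adjusted p = 4.61e-06). RN7SL1 (8.35 ± 0.53), MALAT1 (5.32 ± 0.52) and KCNQ1OT1 (3.72 ± 0.38) were also higher. KCNQ1OT1, counted among the 4, met the filter on low counts only through TCP-seq and Sel-TCP-seq libraries, so its call carries no weight here either. NORAD had 67.1 to 76.2 CPM in WT TCP-seq, against 63.9 and 66.0 CPM in WT RNA-seq, and the difference of 0.12 ± 0.16 did not pass (adjusted p = 0.546). NEAT1 long likewise did not pass (0.01 ± 0.18, adjusted p = 0.959), whereas NEAT1 short was slightly lower in WT TCP-seq (-0.45 ± 0.20, adjusted p = 0.0450). The RNAs that Ribo-seq depleted most, NORAD and NEAT1, thus had shares in TCP-seq within 1.37-fold of those in RNA-seq.

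MALAT1 and NORAD took a smaller share of the 40S libraries pulled down through a tagged protein than of WT TCP-seq. Over the mean of the 3 tagged proteins, 2 of the 7 transcripts were lower and 0 higher, where 18.7% of the 57275 tested transcripts were lower and 5.43% higher. MALAT1 had 254 and 134 CPM with eIF2D-V5, 121 and 64.3 with MCTS1-V5 and 102 and 66.3 with DENR-V5, against 307 to 758 CPM in WT TCP-seq (log2 difference -2.09 ± 0.33, adjusted p = 0.00116). NORAD had 33.4 and 34.8 CPM with eIF2D-V5, 28.1 and 22.5 with MCTS1-V5 and 41.3 and 51.8 with DENR-V5, against 67.1 to 76.2 CPM in WT TCP-seq (-1.05 ± 0.18, adjusted p = 1.86e-06). Every Sel-TCP-seq library lay below every WT TCP-seq library for both RNAs, and the median over all tested transcripts was -0.34. RN7SK (0.42 ± 0.42, adjusted p = 0.535) and RN7SL1 (0.31 ± 0.25, adjusted p = 0.417) did not pass, and their Sel-TCP-seq libraries lay on both sides of the WT TCP-seq ones. NEAT1 long, NEAT1 short and KCNQ1OT1 had differences of -0.63, -0.998 and -1.13 that did not pass. Their calls turned on single libraries: without WT TCP-seq library 1 NEAT1 long (-0.86, adjusted p = 0.0431) and NEAT1 short (-1.20, adjusted p = 0.0337) passed, NEAT1 short also did without eIF2D-V5 library 1 (-1.24, adjusted p = 0.00830), and KCNQ1OT1 did without MCTS1-V5 library 1 (-3.92, adjusted p = 0.0396). Tag by tag, NORAD was lower with eIF2D-V5 (-1.04, adjusted p = 6.93e-05, with 13.3% of transcripts lower) and MCTS1-V5 (-1.51, adjusted p = 0.000556, with 5.77% lower), and did not pass with DENR-V5 (-0.61, adjusted p = 0.146). MALAT1 passed as lower with each of the 3 tags. Taken alone against WT TCP-seq, eIF2D-V5 had more NEAT1 long (0.88 ± 0.25, adjusted p = 0.00618, with 17.9% of transcripts higher) and DENR-V5 had less (-2.39 ± 0.72, adjusted p = 0.0330, with 5.85% lower), the DENR-V5 libraries holding 4 and 0 counts.

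The tagged proteins differed among themselves. The eIF2D-V5 libraries were set against the mean of MCTS1-V5 and DENR-V5, and 5 of the 7 transcripts passed the filter on low counts. By edgeR 2 of these 5 were higher and 0 lower with eIF2D-V5, where 12.8% of the 12135 tested transcripts were higher and 9.32% lower. DESeq2 called 3 of the 5, with NEAT1 long higher and RN7SK and RN7SL1 lower. NEAT1 long had 52.1 and 26.3 CPM with eIF2D-V5, against 19.7 and 11.3 with MCTS1-V5 and 6.35 and 0 with DENR-V5. The MCTS1-V5 and DENR-V5 values come from 7, 7, 4 and 0 counts, and the 0 has a floor of 3 counts at 6.22 CPM and an exact 95% upper bound of 7.64 CPM. NEAT1 long met the filter on low counts through the eIF2D-V5 libraries, where it was high, so its log2 difference of 2.23 is a description and its call carries no weight. MALAT1 was 0.99 ± 0.33 higher (adjusted p = 0.0465), but not without eIF2D-V5 library 1 (0.41, adjusted p = 0.371) or DENR-V5 library 2 (0.85, adjusted p = 0.0988), nor with DESeq2 (adjusted p = 0.151).

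RN7SK pointed the other way. It had 2599 and 1070.5 CPM with eIF2D-V5, against 9446 and 4799 with MCTS1-V5 and 7125 and 6488 with DENR-V5. Both eIF2D-V5 libraries lay below all 4 others, yet the difference of -2.07 ± 0.73 missed the threshold (adjusted p = 0.0527). With replicate number as a block it was -2.19 (adjusted p = 0.000851), scaled by library totals -1.93 (0.0313), with no filter -1.89 (1.09e-10) and with DESeq2 -2.07 (0.000364). It also passed without eIF2D-V5 library 1 (-2.93, adjusted p = 0.00357), MCTS1-V5 library 1 (-1.69, adjusted p = 0.0295) or MCTS1-V5 library 2 (-2.36, adjusted p = 0.00490). RN7SL1 had 3101 and 1527 CPM with eIF2D-V5, against 5994 and 3226 with MCTS1-V5 and 5937 and 5833 with DENR-V5, again with both eIF2D-V5 libraries lowest (-1.32 ± 0.64, adjusted p = 0.148). With the replicate block its adjusted p was 0.0215 (-1.40), with DESeq2 0.0253 and with no filter 0.000438, and it passed without eIF2D-V5 library 1 (-1.99, adjusted p = 0.0303) or MCTS1-V5 library 2 (-1.60, adjusted p = 0.0418). NORAD did not pass (-0.13 ± 0.32, adjusted p = 0.780). Depth moved with the protein, since the eIF2D-V5 libraries held 1017092 and 2582917 counts and the other 4 held 356019 to 629784, and its part in these differences was not tested.

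The 2 NEAT1 isoforms share their 5′ part, and their counts were read as overlapping. The longer isoform had at least as many counts as the shorter in all 42 libraries. In TCP-seq the shorter isoform's count was 52.3% to 86.8% of the longer one's (median 70.3%), and in Ribo-seq 3.57% to 78.4% (median 31.3%). In RNA-seq it was 92.3% to 96.8% (median 94.6%), so most RNA-seq reads of the gene fell in the shared part. Ribo-seq libraries held 11 to 36 counts that only the longer isoform had, and RNA-seq libraries 62 to 209. MCTS1 KO clone #1 stood apart within Ribo-seq, with the shorter isoform at 78.4% and 72.5% of the longer, against 33.3% and 48.3% in WT. Counts that only the longer isoform had came to 0.0567 and 0.0742 CPM in clone #1 Ribo-seq, against 0.543 and 0.562 CPM in WT Ribo-seq.

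In RNA-seq of the MCTS1 KO the nuclear RNAs MALAT1 and NEAT1 were higher than in WT, each mainly in 1 of the 2 clones. Against WT, the mean of the 2 clones was higher for 3 of the 7 transcripts and lower for 1, where 11.4% of 131951 tested transcripts were higher and 13.5% lower. MALAT1 had 22.6 and 19.2 CPM in clone #1 and 13.0 and 13.8 CPM in clone #2, against 11.8 and 12.3 CPM in WT. All 4 KO libraries lay above WT, by far more in clone #1 (log2 change 0.76 ± 0.06) than in clone #2 (0.20 ± 0.06), and the mean change was 0.48 ± 0.05 (adjusted p = 1.35e-10). NEAT1 long had 19.7 and 19.1 CPM in clone #1 and 33.4 and 31.2 CPM in clone #2, against 18.3 and 19.0 CPM in WT. Its rise lay in clone #2 (0.83 ± 0.05, adjusted p = 6.63e-23) and clone #1 stayed near WT (0.02 ± 0.05, adjusted p = 0.783), with a mean of 0.42 ± 0.04. NEAT1 short, which shares most of its reads, gave 0.43 ± 0.04. NORAD had 61.4 and 57.0 CPM in clone #1 and 58.3 and 57.7 CPM in clone #2, against 63.9 and 66.0 CPM in WT, a small fall without overlap (-0.15 ± 0.03, adjusted p = 0.000594) that did not pass with the clones as 1 group (adjusted p = 0.460).

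Of all tested transcripts, 42.2% passed in clone #1, 14.9% in clone #2 and 45.8% between the clones. The clones differed from each other for MALAT1 (log2 difference of #1 minus #2 0.56 ± 0.06, adjusted p = 1.30e-12), NEAT1 long (-0.81 ± 0.04) and NEAT1 short (-0.77 ± 0.04). KCNQ1OT1 differed as well, with 0.627 and 0.464 CPM in clone #1 and 0.241 and 0.312 CPM in clone #2 (0.93 ± 0.26, adjusted p = 0.00220), against 0.426 and 0.503 CPM in WT. With both clones treated as 1 group, so that the spread between them counts, 0 of the 7 passed, and the adjusted p of MALAT1 was 0.415 and that of NEAT1 long 0.543. RN7SK was erratic, with 0.757 and 1.74 CPM in clone #1 and 0.0241 and 0.189 CPM in clone #2, against 0.701 and 0.0686 CPM in WT (-0.04 ± 1.34). RN7SL1 had 7.44 and 9.67 CPM in clone #1 and 7.66 and 6.42 CPM in clone #2, against 10.3 and 9.29 CPM in WT (-0.34 ± 0.18, adjusted p = 0.289). It passed without clone #1 library 1 (-0.24, adjusted p = 0.000832) or library 2 (-0.44, adjusted p = 1.81e-11).

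**Figure D3:**
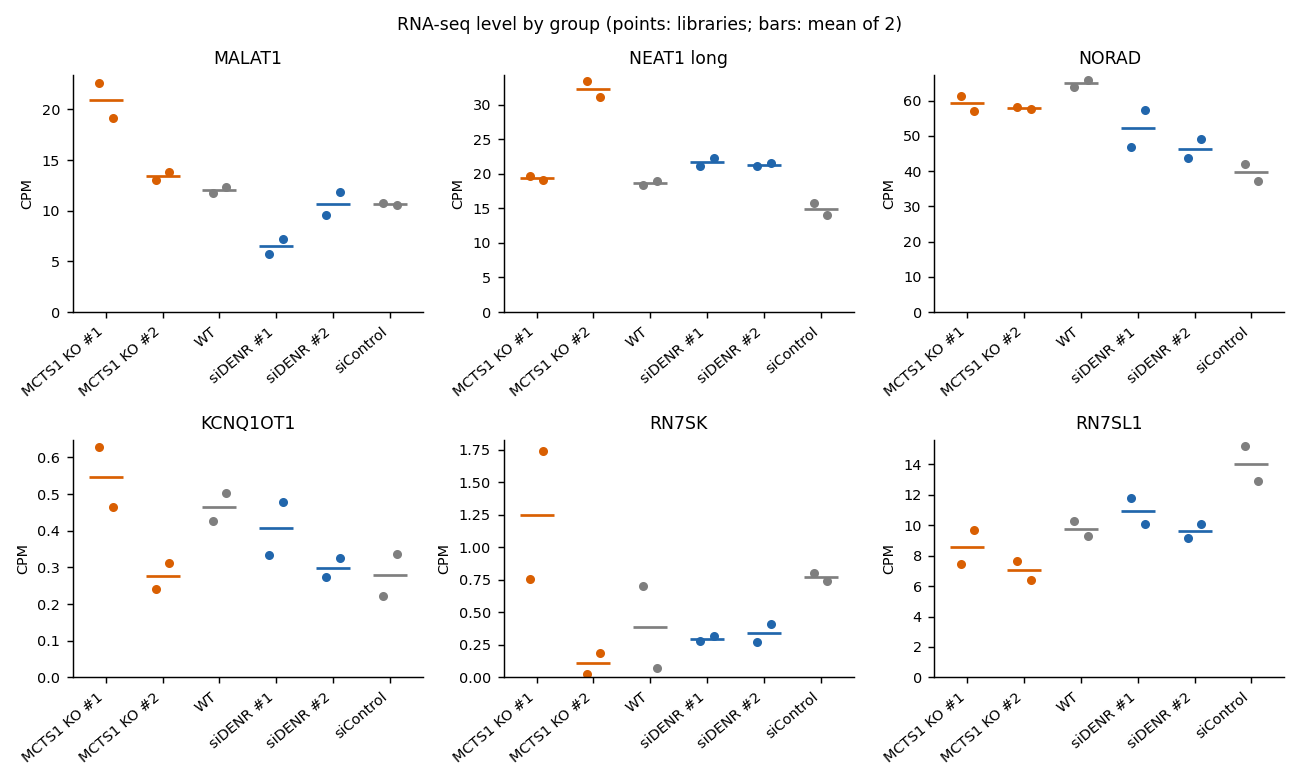
RNA-seq CPM of 6 transcripts by group (linear scale), with 1 point per library and a bar at the mean of 2. MALAT1 is highest in MCTS1 KO clone #1 and NEAT1 long in clone #2, while NORAD is lower and RN7SL1 higher in siControl than in WT cells.

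After siDENR, NEAT1 and NORAD were higher in RNA-seq, and MALAT1 and the polymerase III RNAs lower, than in siControl. Against siControl, 3 were higher and 3 lower, where 10.2% of 131311 tested transcripts were higher and 12.9% lower. RN7SK changed most, with 0.276 and 0.315 CPM after siDENR #1 and 0.273 and 0.413 CPM after siDENR #2, against 0.806 and 0.740 CPM in siControl (log2 change -1.30 ± 0.24, adjusted p = 3.50e-05). It fell with each siRNA, by 1.37 with #1 and 1.22 with #2 on the log2 scale. These values rest on 24 and 31 counts after siDENR #1 and 22 and 33 after siDENR #2, against 62 and 77 in siControl. RN7SK has no poly(A) tail of the mRNA kind, and the 2 WT libraries of this polyA assay held 56 and 6 counts of it. RN7SL1 had 11.8 and 10.1 CPM after siDENR #1 and 9.17 and 10.1 CPM after siDENR #2, against 15.2 and 12.9 CPM in siControl (-0.48 ± 0.08, adjusted p = 3.95e-06). NEAT1 long had 21.1 and 22.3 CPM after siDENR #1 and 21.1 and 21.6 CPM after siDENR #2, against 15.8 and 14.0 CPM in siControl (0.50 ± 0.07, adjusted p = 1.19e-07), and NEAT1 short rose with it (0.48 ± 0.07). For these 4 transcripts no siDENR library overlapped siControl.

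MALAT1 fell with siDENR #1 only, at 5.75 and 7.24 CPM after siDENR #1 and 9.54 and 11.9 CPM after siDENR #2, against 10.8 and 10.5 CPM in siControl. Its log2 change was -0.71 ± 0.10 for #1 (adjusted p = 2.06e-07) and -0.05 ± 0.10 for #2 (adjusted p = 0.792), and the difference between the siRNAs passed (-0.66 ± 0.10, adjusted p = 1.10e-06). Of all tested transcripts, 26% passed for #1, 19.2% for #2 and 24.8% between the siRNAs. NORAD had 46.9 and 57.5 CPM after siDENR #1 and 43.8 and 49.0 CPM after siDENR #2, against 42.1 and 37.3 CPM in siControl (0.28 ± 0.07, adjusted p = 0.000867). The rise of NORAD passed for #1 (0.40 ± 0.08) and not for #2 (0.17 ± 0.08, adjusted p = 0.106), and the mean did not pass without siControl library 2 (0.21, adjusted p = 0.127). With both siRNAs as 1 group 3 transcripts passed, and MALAT1 (adjusted p = 0.487), NORAD (0.253) and RN7SL1 (0.0792) did not. KCNQ1OT1 had 17 to 47 counts per library and did not pass (0.27 ± 0.31, adjusted p = 0.585).

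The 2 control groups themselves differed in RNA-seq, where siControl stood below WT for 4 of the 7 and above it for 1, with 16.2% of 128418 tested transcripts lower and 16% higher. NORAD had 42.1 and 37.3 CPM in siControl, against 63.9 and 66.0 CPM in WT (log2 difference -0.71 ± 0.05, adjusted p = 3.76e-21). RN7SL1 had 15.2 and 12.9 CPM in siControl, against 10.3 and 9.29 CPM in WT (0.52 ± 0.07, adjusted p = 3.38e-09). NEAT1 long (-0.33 ± 0.06) and NEAT1 short (-0.34 ± 0.06) were lower without overlap. MALAT1 was -0.18 ± 0.07 lower (adjusted p = 0.0346), but not with any 1 library left out (adjusted p up to 0.263) nor with the replicate block (adjusted p = 0.0554). RN7SK passed without WT library 1 (3.47, adjusted p = 1.36e-10) or with the block (1.19, adjusted p = 0.000130), and KCNQ1OT1 without siControl library 2 (-1.08, adjusted p = 0.0441). The 4 siDENR libraries lay between siControl and WT for NORAD, at 43.8 to 57.5 CPM, and at 9.17 to 11.8 CPM they overlapped WT for RN7SL1. In Ribo-seq siControl differed from WT for 0 of the 7 (9.59% of 107444 called). MALAT1 and NORAD, 2 of the 7, had an unadjusted p under 0.05 in edgeR there, and DESeq2 called 0 of the 4 to which it gave an adjusted p. NORAD met the filter on low counts there through the WT libraries, where it was higher, so its p carries no weight. RN7SL1 passed without WT Ribo-seq library 2 (-1.59, adjusted p = 5.59e-21) or with the replicate block (-0.93, adjusted p = 4.46e-06).

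In Ribo-seq of the MCTS1 KO, NEAT1 long was lower than in WT and was the only 1 of the 7 to pass in edgeR. DESeq2 called RN7SK instead, and gave no adjusted p to 4 of the 7, NEAT1 long included. Of the 7 transcripts 1 was lower and 0 higher in MCTS1 KO than in WT Ribo-seq, where 3.37% of 115412 tested transcripts were lower and 2.72% higher. NEAT1 long had 0.263 and 0.270 CPM in clone #1 and 0.810 and 0.663 CPM in clone #2, against 0.814 and 1.09 CPM in WT, and its mean log2 change was -1.14 ± 0.27 (adjusted p = 0.0124). All 4 KO libraries lay below WT, and clone #1 lay lowest (-1.88 ± 0.30 in #1, -0.41 ± 0.33 in #2, and -1.47 ± 0.34 for #1 minus #2, adjusted p = 0.00320). Of all tested transcripts, 16.6% passed in clone #1, 3.61% in clone #2 and 18.6% between the clones. Clone #1 Ribo-seq libraries held 193940882 and 148159238 counts, against 25785993 and 53386368 in WT, and the part of depth was not tested. The call was lost without WT library 2 (-0.89, adjusted p = 0.171), without clone #2 library 2 (-1.08, adjusted p = 0.0611) and with both clones as 1 group (adjusted p = 0.467).

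RN7SK had 3.91 and 5.16 CPM in clone #1 and 4.96 and 4.12 CPM in clone #2, against 10.8 and 6.76 CPM in WT Ribo-seq. The groups did not overlap, and the change of -0.93 ± 0.23 missed the threshold (adjusted p = 0.0726) but passed with DESeq2 (-0.95, adjusted p = 4.61e-05). It also passed without WT library 1 (-0.58, adjusted p = 0.00990), WT library 2 (-1.27, adjusted p = 4.37e-07), clone #1 library 1 (-0.84, adjusted p = 0.0130) or clone #1 library 2 (-1.04, adjusted p = 0.00239). RN7SL1 had 5.74 and 4.27 CPM in clone #1 and 5.47 and 5.16 CPM in clone #2, against 16.2 and 6.28 CPM in WT (-1.08 ± 0.50, adjusted p = 0.371), and that gap depended on the WT library: the change was -0.29 without WT library 1 (adjusted p = 0.269) and -1.67 without WT library 2 (adjusted p = 1.61e-11). NORAD had 0.944 and 0.965 CPM in clone #1 and 0.743 and 0.907 CPM in clone #2, against 0.388 and 0.656 CPM in WT, without overlap but also without passing (0.66 ± 0.27, adjusted p = 0.152).

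The ratio of Ribo-seq to RNA-seq, tested as an interaction of group and assay, fell in the mean of the 2 MCTS1 KO clones for MALAT1 and NEAT1 long, and in both clones taken alone for NEAT1 long. Relative to WT it was lower for 3 of the 7 and higher for 0, where 0.519% of 108757 tested transcripts were lower and 0.345% higher. Of the 3, NEAT1 short met the filter on low counts in Ribo-seq only with the WT libraries, where its mean was higher. Its values are thus a description and its call carries no weight. The 2 isoforms also share reads. In Ribo-seq the shorter one's count was 33.3% and 48.3% of the longer one's in WT, 78.4% and 72.5% in clone #1 and 25% and 42.1% in clone #2. In RNA-seq it was 92.3% to 96.8%, so the ratio of NEAT1 long sets different parts of the gene against each other. For NEAT1 long the interaction was -1.61 ± 0.21 on the log2 scale (adjusted p = 5.24e-06), and the CPM ratio was 0.0137 in clone #1 and 0.0228 in clone #2, against 0.0509 in WT. For MALAT1 it was -0.87 ± 0.14 (adjusted p = 0.000177), with ratios of 0.112 in clone #1 and 0.221 in clone #2, against 0.280 in WT. For NEAT1 short it was -1.44 ± 0.32 (adjusted p = 0.0127), from 6 to 40 Ribo-seq counts per library, and it did not pass without clone #2 Ribo-seq library 1 (-1.33, adjusted p = 0.0758). MALAT1 differed between the clones (-0.91 ± 0.16 for #1 minus #2, adjusted p = 0.000176), and with both clones as 1 group 0 transcripts passed (adjusted p of 1.00 for the 3). In clone #1 alone all 3 passed, and in clone #2 alone NEAT1 long did (-1.27, adjusted p = 0.0251), but MALAT1 (-0.42, adjusted p = 0.571) and NEAT1 short (-1.70, adjusted p = 0.101) did not. Of all tested transcripts, 5.46% passed in clone #1, 0.108% in clone #2 and 6.21% between the clones. The mean change of NORAD did not pass (0.77 ± 0.22, adjusted p = 0.0888), but it passed as higher in clone #1 (0.90, adjusted p = 0.00525) and, for the mean, without WT Ribo-seq library 2 (1.30, adjusted p = 0.0406).

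After siDENR, 0 of the 7 passed in Ribo-seq by edgeR, where 10.4% of 108890 tested transcripts were called. DESeq2 called 0 of the 4 to which it gave an adjusted p, and NORAD was the only one with an unadjusted p under 0.05. NORAD had 0.490 and 0.825 CPM after siDENR #1 and 0.472 and 0.550 CPM after siDENR #2, against 0.204 and 0.122 CPM in siControl, so that every siDENR library lay above both siControl libraries (1.78 ± 0.66, adjusted p = 0.0778). These are 9 to 17 counts after siDENR, against 6 and 4 counts in siControl. NORAD met the filter on low counts through the siDENR libraries, where it was higher. Its change is thus a description, and its unadjusted p carries no weight. The ratio of Ribo-seq to RNA-seq was higher for 1 of the 7 and lower for 0, where 0.242% of 102515 tested transcripts were higher and 0.135% lower. That was RN7SK, with ratios of 30.7 after siDENR #1 and 23.2 after siDENR #2, against 11.6 in siControl (1.19 ± 0.26, adjusted p = 0.0166). Its Ribo-seq values overlapped between the groups, at 8.73 and 9.42 CPM after siDENR #1 and 8.64 and 7.27 CPM after siDENR #2, against 8.94 and 9.03 CPM in siControl. The RNA-seq side of the ratio rests on 22 to 33 counts per library after siDENR, against 62 and 77 in siControl. The call on the ratio was lost in 5 of the 12 fits that left out 1 library: siControl Ribo-seq library 1 (1.18, adjusted p = 0.0573), siControl RNA-seq library 1 (1.14, 0.173) and 2 (1.24, 0.103), siDENR #1 RNA-seq library 1 (1.15, 0.0506) and siDENR #2 RNA-seq library 1 (1.06, 0.107). With both siRNAs as 1 group its adjusted p was 0.238.

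In TCP-seq the WT libraries fell into 2 pairs by the sequence of their library names, and each KO was set against the pair next to it. MALAT1 separated those pairs, with 758 and 539.9 CPM in WT libraries 3 and 4, against 307 and 318 CPM in WT libraries 1 and 2 (log2 difference 1.06 ± 0.19, adjusted p = 0.00439). It was the only 1 of the 7 to pass, where 2.59% of 50991 tested transcripts were called. What distinguishes the pairs is not given in the labels, so a difference that depends on the pair cannot be told apart from it.

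Against WT libraries 3 and 4, most of the 7 transcripts were lower in MCTS1 KO TCP-seq. In the mean of the 2 clones 5 were lower and 0 higher, where 6.56% of the 50991 tested transcripts were lower and 7.28% higher. RN7SL1 had 2885 and 3002 CPM in clone #1 and 1916 and 2105 CPM in clone #2, against 2798 and 3519.8 CPM in WT 3 and 4 (log2 change -0.42 ± 0.12, adjusted p = 0.0105). Its fall lay in clone #2 (-0.73 ± 0.14), whereas clone #1 overlapped WT (-0.10 ± 0.14), and the clones differed (0.63 ± 0.14 for #1 minus #2, adjusted p = 0.00216). Of all tested transcripts, 4.99% passed in clone #1, 19.1% in clone #2 and 3.44% between the clones. RN7SK had 2652 and 3444 CPM in clone #1 and 1881 and 2109 CPM in clone #2, against 3487 and 3967 CPM in WT 3 and 4 (-0.63 ± 0.19, adjusted p = 0.0378). MALAT1 had 349.9 and 390.2 CPM in clone #1 and 526 and 390.3 CPM in clone #2, against 758 and 539.9 CPM in WT 3 and 4 (-0.69 ± 0.16, adjusted p = 0.00794). All 4 KO libraries lay below both WT libraries for RN7SK and MALAT1. KCNQ1OT1 had 6.09 and 4.35 CPM in clone #1 and 2.12 and 2.59 CPM in clone #2, against 6.11 and 10.0 CPM in WT 3 and 4 (-1.16 ± 0.37, adjusted p = 0.0185), from 7 to 19 counts per library. NORAD had 57.9 and 59.0 CPM in clone #1 and 59.8 and 58.9 CPM in clone #2, against 76.2 and 70.0 CPM in WT 3 and 4 (-0.35 ± 0.12, adjusted p = 0.0365).

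These calls depended on the scaling, the test, the choice of WT libraries and on single libraries. Scaled by library totals, MALAT1 (-0.66, adjusted p = 0.0901), RN7SK (-0.60, 0.112) and NORAD (-0.32, 0.0609) did not pass. NEAT1 short then passed as higher (0.62, adjusted p = 0.0466). With DESeq2, RN7SK (adjusted p = 0.0807), NORAD (0.136) and RN7SL1 (0.156) did not pass. Against WT libraries 1 and 2, the change of MALAT1 was 0.37 (adjusted p = 0.214), and RN7SK, NORAD and KCNQ1OT1 did not pass, while NEAT1 long (1.03, adjusted p = 0.000110) and NEAT1 short (1.01, adjusted p = 0.00104) were higher. RN7SL1 still passed there. NORAD did not pass with any 1 library left out (adjusted p = 0.0703 to 0.251), and KCNQ1OT1 did not without WT library 4 (-0.76, adjusted p = 0.368), clone #1 library 2 (-1.06, 0.0570) or clone #2 library 1 (-1.10, 0.0503). Without WT library 4 RN7SL1 did not pass either (-0.19, adjusted p = 0.502). DESeq2 called 1 of the 6 to which it gave an adjusted p, and with both clones as 1 group 1 passed. NEAT1 long had 20.3 and 26.7 CPM in clone #1 and 39.2 and 36.6 CPM in clone #2, against 25.3 and 22.1 CPM in WT 3 and 4. It passed as higher in clone #2 taken alone, but not in the mean of the clones. NEAT1 short had 14.2 and 19.9 CPM in clone #1 and 34.0 and 29.3 CPM in clone #2, against 14.7 and 15.3 CPM in WT 3 and 4. Its mean change narrowly failed (0.59 ± 0.22, adjusted p = 0.0545), the rise in clone #2 passed (1.00 ± 0.22, adjusted p = 0.000238), and the mean passed without clone #1 library 1 (0.71, adjusted p = 0.0437) or clone #2 library 2 (0.65, adjusted p = 0.0415).

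**Figure D4:**
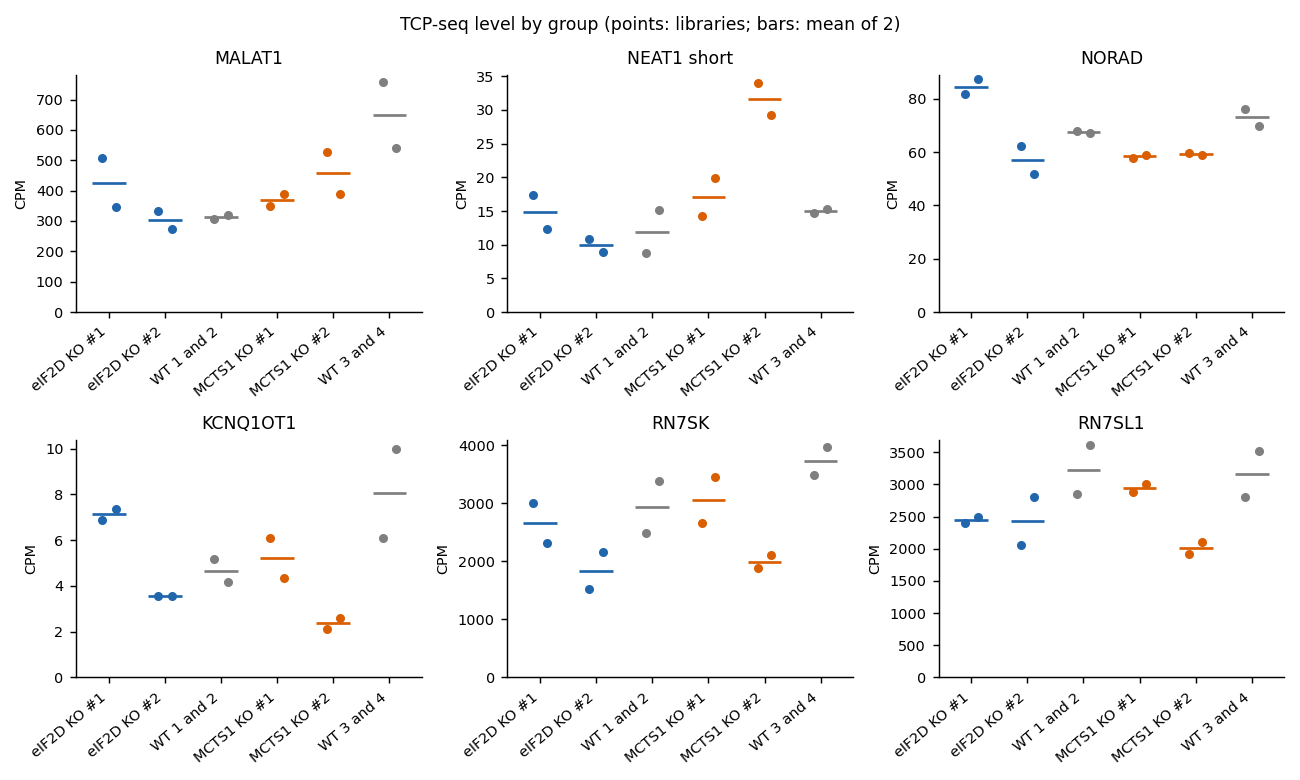
TCP-seq CPM of 6 transcripts by group (linear scale), with 1 point per library and a bar at the mean of 2, and WT libraries drawn as the pairs 1 and 2 and 3 and 4. MALAT1 is higher in WT 3 and 4 than in WT 1 and 2, and NEAT1 short is highest in MCTS1 KO clone #2.

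In eIF2D KO TCP-seq RN7SL1 was lower than in WT and was the only 1 of the 7 to pass. Against WT libraries 1 and 2, 1 was lower and 0 higher in the mean of the 2 clones, where 1.01% of the 50991 tested transcripts were lower and 0.604% higher. RN7SL1 had 2394 and 2495 CPM in clone #1 and 2054 and 2802 CPM in clone #2, against 2845 and 3609 CPM in WT 1 and 2, so all KO libraries lay lower (log2 change -0.47 ± 0.12, adjusted p = 0.0181). The fall did not pass with DESeq2 (adjusted p = 0.960), scaled by library totals (-0.41, adjusted p = 0.134) or with the replicate block (-0.47, adjusted p = 0.0660), nor without WT library 2 (-0.24, adjusted p = 0.692) or clone #2 library 1 (-0.34, adjusted p = 0.117). RN7SK had 3000 and 2310.3 CPM in clone #1 and 1515.5 and 2154 CPM in clone #2, against 2488 and 3386 CPM in WT 1 and 2, with overlap (-0.48 ± 0.19, adjusted p = 0.295). It passed without WT library 1 (-0.72, adjusted p = 0.00176), clone #1 library 1 (-0.58, adjusted p = 0.0139) or clone #2 library 2 (-0.64, adjusted p = 2.22e-06), and against WT libraries 3 and 4 (-0.83, adjusted p = 0.0100).

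MALAT1 had 507 and 346 CPM in eIF2D KO clone #1 and 331 and 272 CPM in clone #2, against 307 and 318 CPM in WT 1 and 2, and the groups overlapped (0.13 ± 0.16, adjusted p = 0.819). Against WT libraries 3 and 4 it was lower (-0.93, adjusted p = 0.000798), so its direction turned with the WT pair. NEAT1 long rose in clone #1, with 31.6 and 23.5 CPM in clone #1 and 15.4 and 13.0 CPM in clone #2, against 11.7 and 18.2 CPM in WT 1 and 2 (0.82 ± 0.22 in #1, adjusted p = 0.0235, and -0.01 ± 0.24 in #2). WT libraries 3 and 4 had 25.3 and 22.1 CPM, which clone #1 overlapped, and against them the mean change was -0.35. NORAD had 81.8 and 87.4 CPM in clone #1 and 62.3 and 51.9 CPM in clone #2, against 68.1 and 67.1 CPM in WT 1 and 2, so the clones lay on opposite sides of WT. The clones differed for NEAT1 long (0.84 ± 0.20 for #1 minus #2, adjusted p = 0.00258) and NORAD (0.49 ± 0.13, adjusted p = 0.00471). Of all tested transcripts, 1.84% passed in clone #1, 3.29% in clone #2 and 8.23% between the clones. KCNQ1OT1 (0.01 ± 0.38) and NEAT1 short (0.04 ± 0.24) did not pass.

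**Figure D5:**
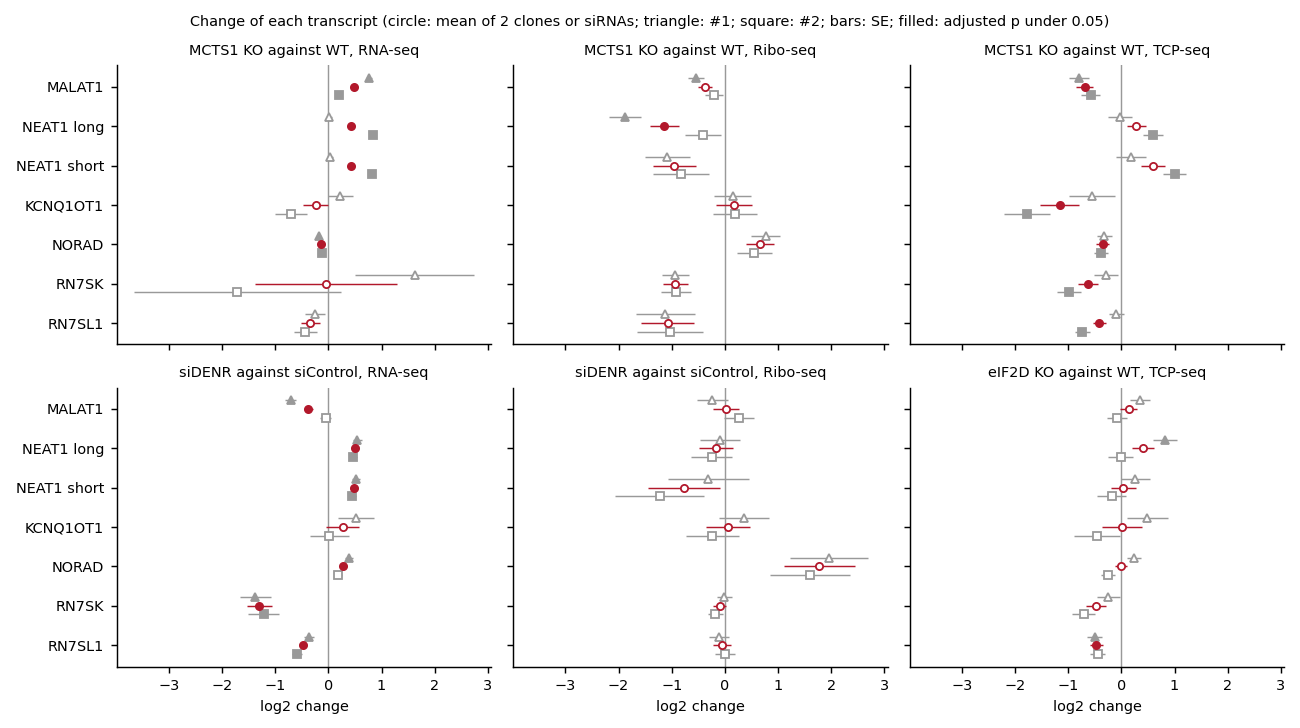
Log2 change of each transcript in the KO clones or after siDENR against the control of the same assay, as the mean of both clones or siRNAs (circle) and for #1 (triangle) and #2 (square), with SE bars and filled symbols where the adjusted p is under 0.05. In RNA-seq MALAT1 and NEAT1 rose mainly in different MCTS1 KO clones. In MCTS1 KO TCP-seq 5 falls and 2 rises passed in clone #2, where 19.1% of all tested transcripts passed. In clone #1 1 fall passed, where 4.99% of all tested transcripts passed.

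Each member was matched to the transcript most like it in level across the 20 groups, among those averaging at least 5 CPM in RNA-seq and in Ribo-seq. Transcripts whose replicate deviations from the group mean correlated above r = 0.95 with the member were left out. Other transcripts of the member's own gene were not, so a match may be one of them. The matches are given by identifier, since no table used here names them. By Pearson's r of log2(CPM + 1), the match was ENST00000525239.5 for RN7SK (0.997), ENST00000665363.1 for RN7SL1 (0.993), ENST00000361381.2 for NORAD (0.989) and ENST00000654083.1 for MALAT1 (0.976). For NEAT1 long (0.937) and NEAT1 short (0.960) it was ENST00000228506.8, and for KCNQ1OT1 ENST00000546283.5 (0.9496). The 20 points share assay and depth, so r mostly follows the differences between assays.

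Overlapping genes limit what some of these counts stand for. In RefSeq annotation MALAT1 overlaps its antisense TALAM1 and the small MASCRNA, NEAT1 overlaps MIR612, KCNQ1OT1 lies within KCNQ1, and RN7SL1 lies within the interval of RPS29. The sources used here do not say whether counting used strand. RN7SL1 has the near-identical copy RN7SL2, and RN7SK and RN7SL1 both have many similar copies in the genome, so how the authors placed reads that map to several copies can change their counts. Replicate deviations above r = 0.95 linked 3 other transcripts to MALAT1, 4 to NEAT1 short, 8 to KCNQ1OT1, 1 to RN7SK, 5 to RN7SL1 and 0 to NEAT1 long and NORAD.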

How the data were processed

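The authors deposited 1 table of raw read counts per transcript, which held 42 libraries with a label here; 10 further labelled samples were not analysed here. The submitters' processing notes name cutadapt, STAR, featureCounts and Subread and the builds GRCh38.p13 and hg38; the sources used here do not give the strand setting or the treatment of reads that map to several places. Per the labels, the RNA-seq molecule was polyA RNA and that of the other assays total RNA. Per the labels' protocols, Ribo-seq used cycloheximide, RNase I and a sucrose cushion. CPM are counts per 1000000 of the column total, with exact binomial intervals at 95% and a floor of 3 counts, both covering counting error only.

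Tests used edgeR 4.0.16 in R 4.3.3 (robust quasi-likelihood, TMM factors, filterByExpr with a minimum count of 10), fitted over all transcripts with Benjamini-Hochberg adjustment and a threshold of 0.05, and two-sided. Comparisons between assays were scaled by library totals. Each clone or siRNA had its own coefficient and a comparison used their mean, so its p leaves out the spread between clones. SE is the log2 change divided by the square root of F. The scripts were tested on simulated data. Alternatives were other scaling, DESeq2 1.42.0, no filter, a replicate block, pooled clones or siRNAs, other WT libraries and each library left out. All 7 transcripts are named, each with the transcript most like it by correlation over 20 groups, within the limits on level and replicate deviations given above. The members and lists were chosen with earlier results of these data known. The planned list of other noncoding RNAs and cell type markers was not examined, since no table used here pairs the identifiers with gene names. No 2 replicate libraries agreed within counting noise, which their differences exceeded by 1.20 to 6.45 times in variance.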

Additional observations from a re-analysis of the deposited data

Results flagged for a closer look

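In WT TCP-seq, 1 library lay far from the other 3 for NEAT1 short, at 8.75 CPM; chance flags about 1 in 20 groups in this way.

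For 12 results the effects of clone or siRNA #1 and #2 under the same contrast differed by their own test, given as the log2 difference of #1 minus #2. In MCTS1 KO RNA-seq this was 0.56 for MALAT1, -0.81 for NEAT1 long, -0.77 for NEAT1 short and 0.93 for KCNQ1OT1. In MCTS1 KO Ribo-seq it was -1.47 for NEAT1 long, and in the MCTS1 KO ratio of Ribo-seq to RNA-seq -0.91 for MALAT1. In MCTS1 KO TCP-seq it was -0.82 for NEAT1 short and 0.63 for RN7SL1, and in eIF2D KO TCP-seq 0.84 for NEAT1 long and 0.49 for NORAD. After siDENR, RNA-seq gave -0.66 for MALAT1 and 0.22 for NORAD. Between WT TCP-seq libraries 3 and 4 and libraries 1 and 2, MALAT1 differed by 1.06 on the log2 scale.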

How the results depend on the processing

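Of 1277 values of single transcripts under an alternative, 1115 kept their direction and side of the threshold, 67 lost the call, 47 gained one and 48 turned direction. The cause of these changes was not tested. With DESeq2's size factors in edgeR, 103 of 103 kept both.

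With both clones or siRNAs as 1 group, the transcripts that passed numbered 0 for MCTS1 KO RNA-seq (4 in the fit reported), 0 for its Ribo-seq (1), 0 for its ratio (3), 3 for siDENR RNA-seq (6), 0 for its ratio (1), 0 for eIF2D KO TCP-seq (1) and 1 for MCTS1 KO TCP-seq (5). With no filter they numbered 2 for MCTS1 KO Ribo-seq, 2 for eIF2D KO TCP-seq, 3 for MCTS1 KO TCP-seq and 5 for eIF2D-V5 against the other tags (2). Scaled by totals they numbered 0 for eIF2D KO and 3 for MCTS1 KO TCP-seq, where NEAT1 short was a new call, and with DESeq2 0 and 1. Against all 4 WT libraries eIF2D KO TCP-seq gave 2, and against the other WT pair eIF2D KO gave 3 and MCTS1 KO 3.

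The replicate numbers were not taken to pair libraries, since groups share only 2 numbers and replicate differences correlated at -0.135 to 0.272 between groups. With the replicate block 0 passed in eIF2D KO TCP-seq, 4 for eIF2D-V5 and 1 for siControl against WT Ribo-seq (0). No block could be fitted for MCTS1 KO TCP-seq.

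With 1 library left out, the transcripts passing numbered 0 to 2 for MCTS1 KO Ribo-seq, 0 to 1 for the siDENR ratio, 0 to 2 for eIF2D KO TCP-seq, 2 to 5 for MCTS1 KO TCP-seq, 1 to 5 for eIF2D-V5, 2 to 4 for Sel-TCP-seq against WT TCP-seq and 0 to 1 for siControl against WT Ribo-seq.

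Directions turned as follows, in log2. In eIF2D KO TCP-seq, all 4 WT libraries and the other WT pair gave -0.49 and -0.93 for MALAT1, -0.0057 and -0.35 for NEAT1 long, -0.18 and -0.38 for NEAT1 short, and -0.37 and -0.71 for KCNQ1OT1. NORAD there was 0.0551 by totals and 0.0142 with no filter. MALAT1 in MCTS1 KO TCP-seq was 0.37 against the other WT pair. NORAD with eIF2D-V5 was 0.014 by totals and 0.0327 with no filter. RN7SK was 0.88 in MCTS1 KO RNA-seq with clones as 1 group and -0.0052 for siControl against WT Ribo-seq with no filter. KCNQ1OT1 in WT Ribo-seq against RNA-seq was 0.12 with TMM factors.

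With 1 library left out, the log2 value ran from -1.12 to 2.39 for RN7SK in MCTS1 KO RNA-seq, and in the MCTS1 KO ratio from -3.29 to 0.20 for RN7SK and -1.34 to 0.049 for RN7SL1. In siDENR Ribo-seq it ran from -0.17 to 0.23 for MALAT1, -0.42 to 0.077 for NEAT1 long, -0.14 to 0.28 for KCNQ1OT1 and -0.29 to 0.22 for RN7SL1, and in the siDENR ratio from -0.58 to 0.042 for KCNQ1OT1. In eIF2D KO TCP-seq it ran from -0.015 to 0.27 for MALAT1, -0.42 to 0.44 for NEAT1 short, -0.0648 to 0.17 for KCNQ1OT1 and -0.0566 to 0.0199 for NORAD. For siControl against WT Ribo-seq it ran from -0.87 to 0.54 for NEAT1 short and -0.32 to 0.37 for RN7SK, and for WT Ribo-seq against RNA-seq from -0.64 to 0.73 for RN7SL1. Counts under 10 in some libraries limit NORAD, NEAT1 short and KCNQ1OT1 in Ribo-seq, both NEAT1 isoforms and KCNQ1OT1 in Sel-TCP-seq, KCNQ1OT1 in TCP-seq and RN7SK in RNA-seq.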
